A study of Mus musculus with 6 samples.

Results

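DNA repair genes are described by 42 genes listed by name from the main repair pathways, in the mouse embryonic fibroblast line 10T1/2. Their members were all probe sets that the platform annotation gave to exactly 1 gene, that gene being on the list. Such probe sets were present for 41 of the 42 genes, among 18194 genes measured in all, and numbered 96 of 35067. Xrcc2, a recombination gene, had none and was not analysed here. The cells carried no treatment or engineered allele in the labels, were kept in DMEM supplemented with 10% fetal bovine serum, and were harvested at 80% confluency. There was 1 group, made of samples 1, 4 and 5, and RNA of each was hybridised to 1 MOE430A and 1 MOE430B array, 6 arrays in all. The labels state that the best 3 samples were to be used, but not whether each was a culture of its own, and the differences between them can therefore be technical.

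Cells meet DNA damage with several repair routes. Nucleotide excision repair cuts out a short strand around bulky lesions such as those of ultraviolet light, base excision repair replaces single damaged bases, and mismatch repair corrects copying errors. Double-strand breaks are sensed by checkpoint kinases and closed by end joining or by homologous recombination, the Fanconi anaemia pathway handles cross-links between strands, and translesion polymerases copy across lesions that remain. Several recombination and checkpoint genes are transcribed mainly around S phase under E2F factors, whereas many excision repair genes are transcribed through the whole cell cycle, including in fibroblasts that do not divide.

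Levels are MAS5 signals, a linear intensity per probe set with each array scaled on its own. A probe set was called above background when it exceeded, on 3 of 3 arrays of a design, the 95th percentile of probe sets of genes restricted to other tissues. This limit was 1359, 1455 and 958 in samples 1, 4 and 5 on MOE430A, from 131 probe sets. It was lowest in sample 5, so a gene can be above it in sample 5 alone without a matching rise in signal. On MOE430B it was 4122, 2663 and 4065, from 22 probe sets only, so it is the less certain of the limits. Fibroblast markers were above it in 11 of 12 cases, with Thy1 as the exception, and their summed signal on MOE430A was 464233, 505329 and 231123 in samples 1, 4 and 5. None of 6 endothelial or 5 leukocyte markers was above it, with summed signals of 1508 to 3687 and 993 to 1783, and of 6 epithelial markers 1 was, Epcam on MOE430B, at 31382, 139544 and 29693 in samples 1, 4 and 5 by a single _x_at probe set. The epithelial markers on MOE430A summed to 1897, 1494 and 2000 in samples 1, 4 and 5. The ratio of 3' to 5' probe sets of Gapdh, a sign of RNA or labelling quality, was 24.7, 15.0 and 10.6 in samples 1, 4 and 5 on MOE430A and 23.4, 14.0 and 11.5 on MOE430B. It was far above 1 on every array, so all samples, and not only sample 1, had weaker signal toward the 5' end. Whether this lowered the signal of other probe sets below the limit was not tested.

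The promoters of the repair genes that stood apart in 1 sample are shown first, because E2F-type letters are known from promoters of genes of the cell cycle. They are the 250 bases before the RefSeq gene start in GRCm38.p6, written 5′ to 3′ on the gene's strand. Capitals mark the E2F-type letters (TTCCCGC or else TTGGCGC or else TTCGCGC or else TTGCCGC) and the CCAAT box, each searched on both strands; the motifs do not overlap in letters with each other. Rev3l was not in the promoter table used.
Ercc1, on chr7:19344821-19345070, plus strand, had 1 E2F-type match, 39 bases before the start, and no CCAAT box.
Ercc1: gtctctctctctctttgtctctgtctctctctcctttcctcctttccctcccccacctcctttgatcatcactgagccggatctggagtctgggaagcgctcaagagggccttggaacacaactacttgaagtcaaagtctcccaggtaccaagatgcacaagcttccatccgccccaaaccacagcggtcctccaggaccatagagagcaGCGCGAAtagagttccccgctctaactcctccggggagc
Apex1, on chr14:50924699-50924948, plus strand, had 1 E2F-type match at 205 bases and 1 CCAAT box at 45 bases before the start.
Apex1: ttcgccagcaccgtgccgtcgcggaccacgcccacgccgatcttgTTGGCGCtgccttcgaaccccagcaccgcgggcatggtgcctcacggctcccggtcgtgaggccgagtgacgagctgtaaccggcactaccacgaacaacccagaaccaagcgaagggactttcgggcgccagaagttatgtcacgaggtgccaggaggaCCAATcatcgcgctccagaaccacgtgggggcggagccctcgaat
Ddb1, on chr19:10605347-10605596, plus strand, had neither.
Ddb1: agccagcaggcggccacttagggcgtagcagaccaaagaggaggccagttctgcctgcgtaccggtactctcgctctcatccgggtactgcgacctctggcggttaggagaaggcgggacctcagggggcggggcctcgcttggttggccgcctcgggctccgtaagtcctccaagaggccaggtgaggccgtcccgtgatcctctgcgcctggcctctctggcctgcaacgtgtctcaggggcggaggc
Xrcc1, on chr7:24546449-24546698, plus strand, had a CCAAT box at 87 bases and no E2F-type match.
Xrcc1: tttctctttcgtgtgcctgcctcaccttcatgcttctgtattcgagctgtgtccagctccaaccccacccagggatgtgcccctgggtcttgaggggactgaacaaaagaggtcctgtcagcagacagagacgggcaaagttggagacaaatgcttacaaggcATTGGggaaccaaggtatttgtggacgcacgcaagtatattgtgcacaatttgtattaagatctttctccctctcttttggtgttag
Chek2, on chr5:110839733-110839982, plus strand, had 1 E2F-type match at 152 bases and 2 CCAAT boxes.
Chek2: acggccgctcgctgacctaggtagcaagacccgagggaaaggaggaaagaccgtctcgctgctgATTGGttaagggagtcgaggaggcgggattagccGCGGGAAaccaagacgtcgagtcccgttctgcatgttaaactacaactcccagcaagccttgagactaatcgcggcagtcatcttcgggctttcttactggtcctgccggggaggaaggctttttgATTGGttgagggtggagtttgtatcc
Over the 32 listed genes with a promoter in the table, 13 (40.6%) held an E2F-type match, against 7.89% of all 32851 promoters. The CCAAT box was in 17 (53.1%), against 33.8% of all. These are matches of letters, not measured binding sites. The 32851 promoters were not limited to the genes measured here, and the difference from them was not tested.

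The first question was which repair genes gave a signal above background in these fibroblasts. Of 41 measured genes, 8 did (19.5%), where 24.4% of all genes did. They were Ddb1, Ercc1, Apex1, Rad50, Chek2, Brca2, Fanca and Rev3l, which fall into 7 of the repair steps described here. A further 5 were above the limit on at most 2 arrays of a design, 11 on at most 1, and 17 on none. Most repair transcripts thus lay near or under what these arrays separate from background, which does not show that they were absent. At the level of probe sets, 9 of 70 (12.9%) were above it on MOE430A, against 22.1% of all, and 2 of 26 (7.69%) on MOE430B, against 9.24%. By gene these were 7 of 39 on MOE430A, against 27.8% of genes, and 2 of 18 on MOE430B, against 13.0%. A gene with more probe sets has more chances to be called, and the share over all genes went from 13.5% with 1 probe set to 27.6% with 2, 38.6% with 3 and 50.4% with 4 or more. Among the listed genes these counts were 2 of 13, 3 of 12, 2 of 7 and 1 of 9.

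**Figure D1:**
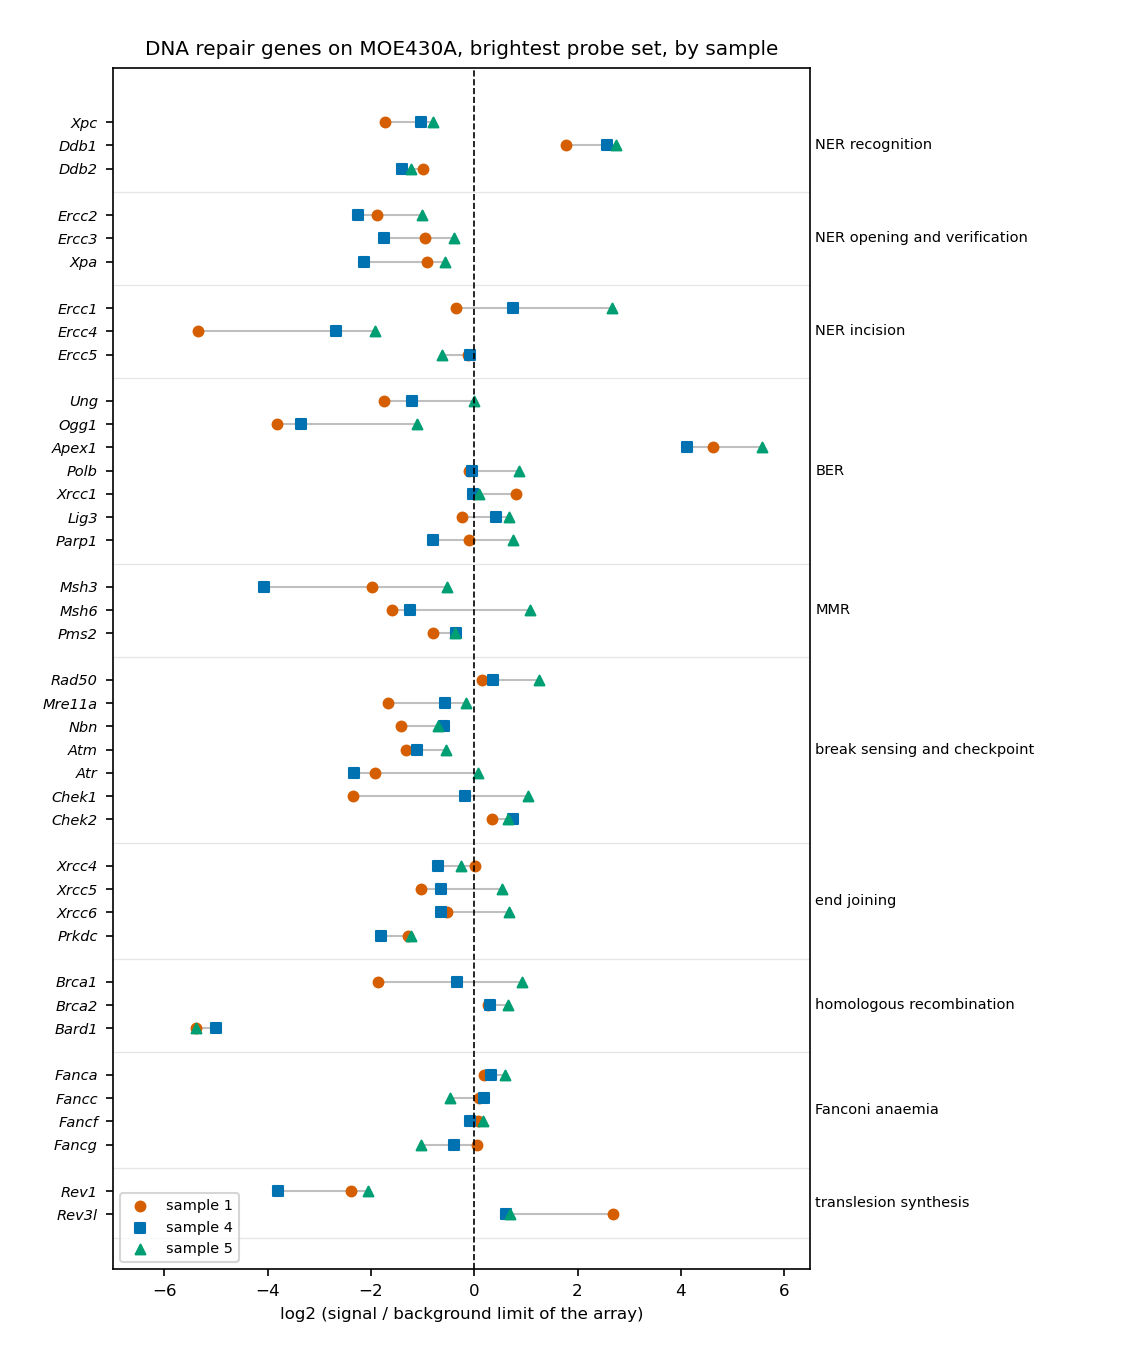
Signal of the brightest MOE430A probe set of 39 repair genes in samples 1 (circles), 4 (squares) and 5 (triangles), as log2 of the signal over the background limit of its array; the dashed line is the limit and the grey bar joins the samples of 1 gene. Apex1, Ddb1, Rev3l, Rad50, Chek2, Brca2 and Fanca lie to the right of the line in every sample. Each of the other genes lies on or left of it in at least 1 sample.

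In nucleotide excision repair, Ddb1 was the clear signal among the damage sensors. Ddb1, which binds ultraviolet lesions together with Ddb2 and is also part of a widely used ubiquitin ligase, read 4672, 8607 and 6447 in samples 1, 4 and 5 on MOE430A (6575 ± 1970, SD, n = 3). The same probe set is also on MOE430B, where it read 8929, 32225 and 22158. Its partner Ddb2 and the lesion sensor Xpc were not above the limit on any array, with Ddb2 at 681, 550 and 410 and Xpc at 409, 708 and 553. The helicase genes Ercc2 and Ercc3 of the TFIIH complex and Xpa, which checks the opened site, were below it on every array too, at 306 to 474, 431 to 733 and 331 to 722 by their brightest MOE430A probe sets.

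Ercc1, the partner of the nuclease Ercc4 in the cut on the 5′ side of a lesion, was measured by separate probe sets on the designs. On MOE430A it read 1061, 2463 and 6079, below the limit in sample 1. On MOE430B it read 9522, 15726 and 29610 (18286 ± 10286, SD, n = 3), above the limit throughout, while its other 2 probe sets there were below it. The order of the samples by the brightest probe set was the same on the arrays of either design, with sample 1 lowest and sample 5 highest. The nuclease genes that complete the incision were weak, with Ercc4 at 3580, 3227 and 4024 on MOE430B, above the limit in sample 4 only, and Ercc5 at 1253, 1369 and 622 on MOE430A.

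Of the base excision repair genes 1 of 7 was above the limit on 3 arrays, Apex1. It encodes the endonuclease that cuts the DNA backbone where a base has been removed, and it was above the limit by all 3 of its probe sets. They read 33706, 25150 and 45554 (34803 ± 10246, SD, n = 3), 19765, 18088 and 30594, and 3437, 4053 and 7946 in samples 1, 4 and 5. Every probe set was highest in sample 5, while the lowest was sample 4 for the first pair, whose names end in _x_at and can match several transcripts, and sample 1 for the third. Xrcc1, the scaffold of single-strand break repair, read 2394, 1427 and 1018, under the limit in sample 4. Its ligase Lig3 read 1158, 1958 and 1538 by its brightest probe set, under the limit in sample 1. Polb, the polymerase that fills the gap, read 1267, 1410 and 1751, and the strand break sensor Parp1 1269, 840 and 1603, each above the limit in sample 5 alone. Both glycosylases on the list stayed below it, Ung at 404, 628 and 953 and Ogg1 at 96.5, 143 and 445.

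Of the mismatch repair genes none was above background throughout. Msh6, which recognises single mismatches, read 449, 616 and 2019, so that only sample 5 exceeded the limit. Msh3, which recognises larger loops, read 347, 87.2 and 667 by its brightest MOE430A probe set, and Pms2, the nuclease subunit, 787, 1145 and 745.

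Among break sensors and checkpoint kinases, Rad50 and Chek2 were above background. Rad50, the tether of the complex that first binds broken ends, read 1515, 1864 and 2295 (1891 ± 391, SD, n = 3), and its other probe set was below the limit. Chek2, the kinase downstream of Atm, read 1725, 2444 and 1508 (1892 ± 489.7, SD, n = 3). The Rad50 partners Mre11a and Nbn were not above it on any array, at 428 to 979 and 511 to 968 on MOE430A. Atm, the kinase of double-strand breaks, read 543, 679 and 656 there, and Atr, the kinase of stalled forks, 357, 291 and 1014. Chek1, which acts downstream of Atr, read 267, 1293 and 1964 by its brightest probe set, above the limit in sample 5 only.

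No end joining gene was above the limit on 3 arrays. The Ku subunit genes Xrcc5 and Xrcc6, whose products hold broken ends, read 668, 933 and 1393 and 943, 928 and 1536, each above it in sample 5 only. Xrcc4, the ligase partner, read 1366, 898 and 799, just above it in sample 1. Prkdc, the kinase recruited by Ku, read 411 to 557, and Lig4 1367, 1256 and 1966 on MOE430B, below the limit throughout.

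Of the recombination and Fanconi anaemia genes, Brca2 and Fanca were above the limit on 3 arrays. Brca2, which loads the recombinase onto single strands, read 1633, 1798 and 1504 (1645 ± 147, SD, n = 3). Brca1 read 375, 1156 and 1829 by its brightest of 4 probe sets, above the limit in sample 5 only, and its partner Bard1 32.7, 45.4 and 23.1. Fanca, a subunit of the core ubiquitin ligase of the pathway, read 1542, 1827 and 1446 (1605 ± 198, SD, n = 3) by 1 of its 2 probe sets. The other core subunits were not above it throughout, with Fancc at 1459, 1669 and 691, Fancf at 1439.7, 1382 and 1081 and Fancg at 1403, 1103 and 470. Fancd2, which the core complex modifies at cross-links, was measured on MOE430B only, at 2977, 3255 and 4261 by its brightest probe set.

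The translesion genes were split. Rev3l, the catalytic subunit of polymerase zeta, read 8783, 2217 and 1554 (4185 ± 3996, SD, n = 3), above the limit in every sample and far higher in sample 1. This came from 1 of its 3 probe sets, while a second read 93.1, 1139 and 592 and the third 17.0, 13.9 and 106, all below the limit. Rev1, the scaffold polymerase of the same step, read 261, 104 and 231. Fewer cells of a kind and less RNA per cell cannot be told apart in any of these bulk values.

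The second question was how far the repair genes varied between the 3 samples. Each sample was set against the mean of the other 2 on the log2 scale, for the brightest probe set of each gene whose mean signal was at or above the mean limit, and signals below the limit were raised to it. A gene was called apart in a sample that lay outside the others and at least 1.5-fold from their mean. With 1 sample on 1 side there is no replicate and no test, so counts are set beside those over all genes. On MOE430A 12 repair genes were kept, and 6 were apart in some sample, where 48.9% of 4414 genes were. Sample 1 had 2 lower (14.0% of all genes) and 2 higher (14.6%), sample 4 had 1 lower (6.16%) and 2 higher (9.11%), and sample 5 had 2 lower (19.6%) and 2 higher (15.3%). These shares are near the background, and the genes that made them up moved in different directions.

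**Figure D2:**
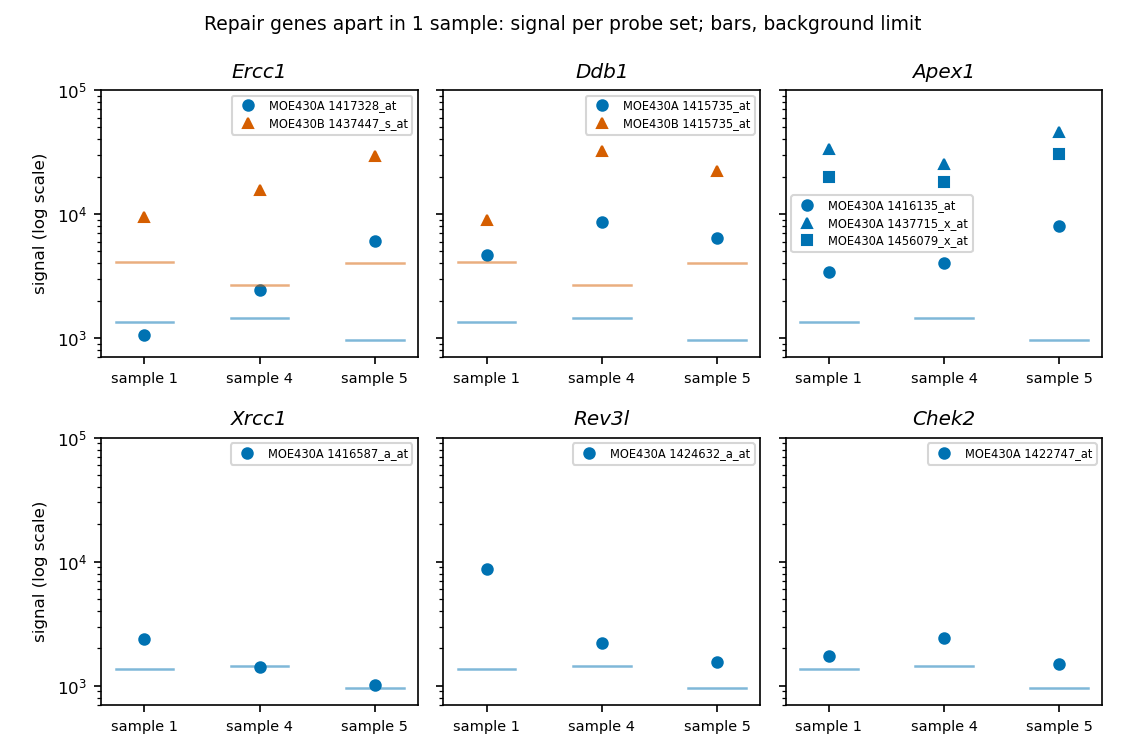
Signal on a log axis of the probe sets at or above the mean limit of the 6 repair genes apart in 1 sample, in samples 1, 4 and 5; points are arrays, blue for MOE430A and orange for MOE430B, and bars are the background limits. Ercc1 is lowest in sample 1 and highest in sample 5 on either design, and Rev3l is highest in sample 1 with 8783.

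By the brightest probe set of each gene, Ercc1 and Rev3l were the only listed genes apart by 2-fold or more on MOE430A, and went opposite ways. Ercc1 was at least 2.85-fold lower in sample 1 than the mean of the others (-1.51 on the log2 scale) and at least 3.32-fold higher in sample 5 (1.73). With 1 of the other samples left out, the sample 1 difference was -0.86 without sample 5 and -2.16 without sample 4. On MOE430B it was 2.27-fold lower in sample 1 and 2.42-fold higher in sample 5, by another probe set with all signals above the limit, whose name ends in _s_at and which can match several transcripts. Rev3l was 4.73-fold higher in sample 1 (2.24) and 2.84-fold lower in sample 5 (-1.51). The latter was -2.50 without sample 4, and without sample 1 it was -0.51 and no longer called, whereas the difference of sample 1 was 1.99 to 2.50 with either other sample left out. It had no MOE430B probe set, so its difference rests on 1 probe set and 3 arrays. Its other MOE430A probe sets, below the limit in every sample, did not share the order. The brighter of them was lowest in sample 1 (93.1, 1139 and 592 in samples 1, 4 and 5), and the other was highest in sample 5.

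Ddb1 was 1.59-fold lower in sample 1 and 1.57-fold higher in sample 4 on MOE430A, and 2.99-fold lower and 2.29-fold higher on MOE430B by the same probe set. Its highest signal was 1.84 times its lowest on MOE430A and 3.61 times on MOE430B, from the same RNA. The size of its differences thus depended on the array. On MOE430A the first call ended without sample 4 (-0.46 on the log2 scale) and the second without sample 1 (0.42). On MOE430B the sample 4 difference was 1.85 without sample 5, and without sample 1 it was 0.54 and no longer called. Sample 4 is also the sample in which the epithelial marker Epcam was highest on MOE430B. The 6 epithelial markers on MOE430A, none above the limit, had their lowest sum in sample 4 (1897, 1494 and 2000 in samples 1, 4 and 5). The part of other cells in the Ddb1 difference was not tested. Apex1 was 1.56-fold higher in sample 5 by its brightest probe set and 2.13-fold higher by the one that does not end in _x_at, and the former call ended without sample 4 (0.43). It was 1.56-fold lower in sample 4, a call that ended without sample 5 (-0.42). Xrcc1 was 1.97-fold higher in sample 1. Its signal was also lower in sample 5 by 1.83-fold, a call that ended, at -0.36 on the log2 scale, when all signals were raised to the highest of the 3 limits, and at -0.51 without sample 1. Chek2 was 1.52-fold higher in sample 4, at the edge of the threshold, and this call ended without sample 5 (0.50). The other 6 kept genes, Brca2, Fanca, Fancf, Lig3, Polb and Rad50, were not apart in any sample, and among them Brca2 ranged from 1504 to 1798.

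On MOE430B 3 repair genes were kept, Ddb1, Ercc1 and Ercc4, and 2 were apart, where 41.7% of 1858 genes were. Both were lower in sample 1 (13.7% of all genes), with Ddb1 higher in sample 4 (8.18%) and Ercc1 higher in sample 5 (16.4%). None was higher in sample 1 (9.36%), lower in sample 4 (10.2%) or lower in sample 5 (9.58%). Ercc1 thus gave the same direction in samples 1 and 5, and Ddb1 in samples 1 and 4, from separate arrays of the same RNA. The size of the Ddb1 differences was not the same on the arrays of either design, as given above. The shared direction checks the array and not the culture.

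Sample 1 was the sample with low signals of proliferation genes, so the listed genes were set beside them. Of 30 listed proliferation genes 19 were kept on MOE430A, and all 19 were lower in sample 1, with a median of -1.33 on the log2 scale. Mki67 read 595, 3678 and 3164, the mitotic kinase gene Cdk1 1809, 10433 and 4459, the topoisomerase gene Top2a 1748, 7948 and 5639, and the cyclin gene Ccna2 2361, 4199 and 3104. The median of the 12 repair genes in sample 1 was -0.12, with 5 below and 2 above both other samples, and that of all 4414 genes was 0.02. Of 24 kept genes of a separate list of other repair genes, 5 were lower and 1 higher in sample 1, with a median of -0.23. In samples 4 and 5 the medians of the 12 were 0.10 and -0.14, against 0.83 and 0.50 for proliferation genes.

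**Figure D3:**
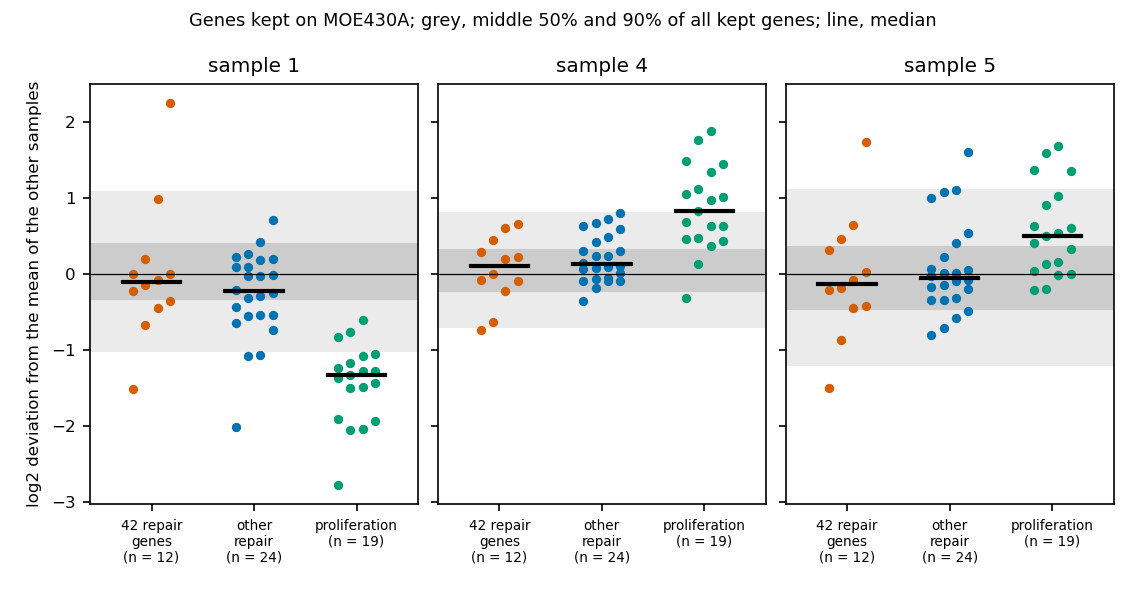
Log2 deviation of each sample from the mean of the other samples on MOE430A. Shown are the 12 kept genes of the list (orange), 24 other repair genes (blue) and 19 proliferation genes (green). Black lines are medians and grey bands hold the middle 50% and 90% of 4414 genes. In sample 1 the proliferation genes lie low, with a median of -1.33, and the repair genes spread on either side of 0, with a median of -0.12.

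A set of 10 listed genes is known for transcripts that peak around S phase, and it was looked at on their own. Only Brca2 and Fanca of the 8 measured on MOE430A were kept, and neither was apart in any sample. By the signals as deposited, with no filter, the brightest probe set was lowest in sample 1 for 4 of the 8, where 30.4% of all genes were lowest there. These were Brca1, Chek1, Msh6 and Ung, whose values are given above, and each was below the limit in sample 1. Their sample 1 signals as deposited deviated by -1.96, -2.58, -1.31 and -0.94 on the log2 scale, which the filter and the raising to the limit remove. With neither, 6 of the 8 and 28 of the 39 listed genes were apart in some sample, where 65.8% of all genes were. Brca1, Chek1, Msh6 and Ung were also highest in sample 5, as was Apex1. Other MOE430A probe sets of Brca1 and Chek1, all below the limit, were not all lowest in sample 1. The next brightest of Brca1 read 1036, 687 and 710 in samples 1, 4 and 5. That of Chek1 read 507, 515 and 141, and a further Chek1 probe set, lowest in sample 1, read 42.6, 113 and 215. The remaining 4 of the 8 were Brca2, Bard1, Fanca and Fancg, and of these Fancg was highest in sample 1. Over all 39 listed genes on MOE430A, samples 1, 4 and 5 held the highest signal for 9, 13 and 17, where they did for 39.4%, 31.6% and 29.0% of genes. They held the lowest for 16, 9 and 14, against 30.4%, 27.7% and 41.9% of genes. Above the limit of each sample were 13, 10 and 19 of the 39, against 33.8%, 32.4% and 42.3%. Sample 5 therefore held the largest single share of highest signals of repair genes on this design. Some of these signals were below its limit, and others belonged to genes above the limit in sample 5 alone. That limit was 958, against 1359 and 1455 in samples 1 and 4. The difference from all genes was not tested. On MOE430B the 18 listed genes were highest in samples 1, 4 and 5 for 6, 4 and 8 (35.3%, 32.1% and 32.6% of genes) and lowest for 8, 6 and 4 (33.6%, 32.2% and 34.3%). There 2, 5 and 3 were above the limit, against 16.8%, 28.5% and 17.9% of genes.

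In the list of other repair genes, which is apart from the 42, 20 of 86 measured were above background (23.3%, against 24.4% of all genes). By signals as deposited, the widest ranges between samples among those kept were in Usp1, Rad23b, Rad54l, Polk, Timeless and Lig1. Usp1, which removes the ubiquitin mark from Fancd2, read 1581, 4845 and 8362 and was 4.02-fold lower in sample 1. Rad23b, the partner of Xpc, read 1522, 2513 and 4103, and the translesion polymerase gene Polk 1781, 3013 and 4633. These 3 had the order of Ercc1, lowest in sample 1 and highest in sample 5. Rad54l, a recombination motor gene, read 823, 2158 and 1141, Timeless, a fork protection gene, 827, 2139 and 1337, and the replicative ligase gene Lig1 1044, 2457 and 1626. Those peaked in sample 4 and were below the limit in sample 1, as were Mki67 and Ercc1. With signals raised to the limit their ranges were 1.89-fold, 1.60-fold and 1.81-fold. Wider on that scale were Tdp2 (2.34-fold), Parp3 on MOE430A (2.01-fold) and Rnf168 on MOE430B (1.98-fold). Tdp2, which removes trapped topoisomerase from DNA ends, read 1436, 1713 and 3360. Tdp2, Parp3 and Rnf168 were added after their values were seen.

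Technical measures also moved with the same samples. Sample 1, in which Ercc1 and Ddb1 were lowest and Rev3l and Xrcc1 highest, had the highest 3' to 5' ratios of Gapdh given above, and of beta-actin on MOE430A (17.5, 9.57 and 8.68 in samples 1, 4 and 5). The poly-A spike-in controls differed in this, with phe highest in sample 1 (21.9, 12.2 and 9.84), dap highest in sample 4 (3.05, 3.32 and 2.40) and lys highest in sample 1 (7.95, 7.39 and 5.55) on MOE430A, and lys highest in sample 4 on MOE430B (8.12, 8.29 and 4.63). Sample 5, in which Ercc1 and Apex1 were highest, was washed on another fluidics station than samples 1 and 4 on MOE430A, and on the same station on MOE430B. Their part in the differences was not tested.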

How the data were processed

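RNA of 3 samples of 10T1/2 cells was measured on 3 MOE430A and 3 MOE430B arrays. The authors deposited 1 MAS5 signal intensity per probe set, per the submitters' processing notes; its version was not given in the labels. Each array had a mean near 1500 after trimming 2% at each end (1501 on MOE430A, 1500 on MOE430B), and no detection calls were used. The designs were kept apart. Genes came from the platform annotation, updated to RefSeq symbols of GRCm38.p6 by gene ID. Of 22690 MOE430A probe sets 20393 named 1 gene, 691 several and 1606 none, and of 22575 on MOE430B 14674, 245 and 7656. Only probe sets naming 1 gene were used.

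The background list had 95 measured genes on MOE430A and 14 on MOE430B. Signals were set to at least 1 before log2. A gene is given by its probe set of highest mean log2 signal on a design. Members and lists were chosen with earlier results of these data known. There is 1 group, so no test was run and p-values are not given. Values of all samples are given for listed genes above background, apart in 1 sample or with probe sets that disagree. They are also given for the 6 widest genes of the list of other repair genes. The first 5 proliferation genes are given where kept (Bub1 was not). Other listed genes were added after their values were seen. The number of arrays limits the precision. The calling step was tested on simulated data. No pair of arrays held identical values. 0 columns of per-sample values were unused. Python 3.11.15, numpy 2.4.6 and pandas 2.3.3 were used. Alternatives covered the limit, the filter, normalisation, probe sets and samples.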

Additional observations from a re-analysis of the deposited data

How the results depend on the processing

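The count of listed repair genes above background, 8, depended on the limit. It was 16 with the limit at the 90th percentile of the background probe sets, 3 at the 99th, 13 with 2 of 3 arrays and 4 when the majority of a gene's probe sets had to be above it. It was 7 to 12 under the other alternatives that kept all samples, which include a second list of olfactory, vomeronasal and similar genes, and 9 to 11 with a sample left out. The share over all genes was not computed under these alternatives, so the counts show only how the calls depended on the setting. The 6 genes apart in 1 sample on MOE430A became 2 at 2-fold, Ercc1 and Rev3l, and 3 to 4 with a sample left out, 3 without sample 1; it was 4 to 7 under the others except the one below. The cause was not tested. Of the 2 genes lower in sample 1 and the 2 higher in sample 5, 1 each remained as a count at 2-fold, and 1 each when only probe sets above the limit on 3 of 3 arrays were used, since Ercc1 is below it in sample 1. Genes known for S phase transcripts had 0 apart under each alternative that kept the filter on low signals or the raising to the limit, which fix that count for genes below the limit. With neither, the counts were 6 for these genes and 28 of 39 apart in some sample, where 65.8% of all genes were. There were also 11 lower in sample 1 and 13 higher in sample 5. No share over all genes was computed for these directions at this setting, so they are not a result about repair genes. Nor was it computed for the other alternative counts of genes apart. The 15 sample deviations of named genes kept their direction in all 144 recomputed values, but not their calls. Much of this was fixed in advance. A called sample lies outside both others, so leaving out either of them cannot reverse its direction for the same probe set. Several other alternatives left many of the values unchanged. The call of Chek2 ended with a pseudocount of 64 and with quantile normalisation, and that of Apex1 as lower in sample 4 with quantile normalisation and without _s_at and _x_at probe sets. With a sample left out, calls of Apex1, Ddb1, Rev3l, Chek2 and Xrcc1 also ended, as given beside each; those of Ercc1 did not. Raising signals to the highest of the 3 limits, pooling the background lists and leaving out filter and raising together were chosen after seeing the data. Without sample 1 or sample 5 the counts for that sample have no value. No paired analysis was possible because the designs share sample numbers but are arrays of the same RNA and form 1 group with no comparison between them.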
